A study of Mus musculus with 12 samples.

Results

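Zinc finger transcription factors are proteins that bind DNA through small loops folded around zinc ions, and the C2H2 type, in which a pair of cysteines and a pair of histidines hold each ion, is the most common kind in mammals. The genes described here were chosen by name. They are the 91 rows, of 3799 genes in the liver expression table, whose symbol begins with Zfp, Zbtb, Zkscan, Zscan, Zfhx, Klf or Sp followed by a digit, with Klf9 left out by the rule. The rule also allowed Zik and Zim, and no row carried either name. By name, 74 were Zfp genes other than Zfp36l1, 8 were Zbtb, 2 were Zfhx, 2 were Klf, 2 were Sp, and Zkscan, Zscan and Zfp36l1 added 1 each.

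The libraries came from livers of male C57BL/6J mice, with 3 libraries in each of 4 groups. Mice aged 8 weeks were injected intraperitoneally with 10 mg/kg doxorubicin, an anthracycline that damages DNA, on day 0 and day 7, and the Saline group, called vehicle in the sample labels, had no doxorubicin. From day 2 the DOX + K35 and DOX + K27 groups were given 50 mg/kg of the compound K35 or K27 by gavage every other day, while the DOX group had vehicle, and livers were collected on day 20. All comparisons are thus between mice of 1 strain and sex at 1 time point, and no group was given K35 or K27 without doxorubicin.

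Many C2H2 factors of the Zfp, Zkscan and Zscan type carry a KRAB domain, which recruits the corepressor Trim28 and, through it, the histone methyltransferase Setdb1 to silence chromatin, much of it in transposable elements. The Zbtb factors combine C2H2 fingers with a BTB domain that forms dimers and binds corepressor complexes. Klf and Sp factors bind GC-rich promoter sequences.

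The names were checked against the reading frames of the GENCODE annotation. A C2H2 pattern (cysteine, 2 to 4 residues, cysteine, 12 residues, histidine, 3 to 5 residues, histidine) was encoded by 88 of the 91 genes, against 52 of 3402 other table genes with a reading frame. The median was 10 patterns per protein, 50 genes encoded 10 or more, and Zfp142 encoded the most, 36. The 3 genes without the pattern were Sp100, Sp110 and Zfp36l1. Sp100 and Sp110 are interferon-inducible proteins of nuclear bodies, and Zfp36l1 is an RNA-binding protein with CCCH fingers that promotes decay of AU-rich mRNAs. These 3 share the name but not the C2H2 pattern. The rule includes them, so they are counted in the totals, and results that rest on them are marked.

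Expression is given in FPKM, a read count divided by transcript length and library size, which is how the deposited values were taken. The table was selected by the authors, and how its genes were chosen is not given in the sources used here, so shares refer to the table and not to all zinc finger genes of the mouse. Its title holds the letters DEG, commonly short for differentially expressed genes. The zinc finger-named genes and all genes set beside them may thus have been kept for differing between these same libraries. Counts of calls and of groups that do not overlap are therefore not independent evidence of a difference. Depth per library is unknown, since the table holds no counts. In bulk liver, fewer cells of a type and less RNA per cell cannot be told apart. The hepatocyte markers Apoa1, Cps1, Cyp2e1 and Tat were present in every library. Libraries B4 of DOX and C4 of DOX + K35 carry codes that match no replicate label. The code B3 of DOX occurs among the labels, but the DOX codes of the labels and of the values differ as a set. B3 was therefore not assigned to a replicate, and B3, B4 and C4 are named by code. Where 3 values are given for a group, they stand in the order replicates 1, 2 and 3 for Saline and DOX + K27, replicate 1, B3 and B4 for DOX, and replicates 1 and 2 and C4 for DOX + K35. Library B4 stood apart, with a median-ratio factor of 0.624 against 0.947 to 1.17 in the other libraries and 83.3% of its summed FPKM in the 13 mitochondrially encoded genes. That share was 48.2% to 61.9% in Saline, 62.2% to 83.3% in DOX, 37.9% to 48.7% in DOX + K35 and 50.01% to 68.0% in DOX + K27.

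The zinc finger-named genes were expressed at low levels. Their mean over the 12 libraries had a median of 2.59 FPKM, from 0.188 FPKM for Zfp697 to 27.1 FPKM for Zfp36l1, while the median of all table genes was 5.13 FPKM. Only 9 of the 91 reached 10 FPKM. None was at 0 in any library. With a mean of at least 1 FPKM required for testing, 74 of the 91 were tested among 3317 genes and 17 were not. Of the 74, 9 had a mean under 1 FPKM in at least 1 group. Zfp7, at 1.00 FPKM, lay just inside the limit, and Zfp772, at 0.950 FPKM, just outside it. Because a gene near this limit can enter through the group where it is high, counts are also given over all 91.

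Genomic positions are those of GRCm38. Chromosome 7 held 15 of the 91 genes, the most of any chromosome, and 18 genes had another of the 91 within 100 kb. Zkscan3 (chr13:21387003-21402755, minus strand) and Zscan26 (chr13:21442180-21453730, minus strand) lay 39425 bases apart. Zfp692 (chr11:58307069-58314627, plus strand) and Zfp672 (chr11:58315114-58330339, minus strand) ended 487 bases apart. Exons of 34 genes overlapped those of another gene, and whether the counting used strand is not given in the sources used here, so reads of such pairs could not be told apart. For 10 genes, over 10% of the 50-base words of their exons also occurred in other genes, with the highest share, 94.1%, in Zfp433, and their values are uncertain for that reason.

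The 3 upstream windows below are shown because Zfp692 had the smallest p-value of these genes in DOX + K35 vs DOX, Zfp664 was the only gene called higher with K35, and Sp100 was the only gene called between the compounds. Each is the 250 bases before a RefSeq transcript start on GRCm38.p6, printed in the direction of transcription, and capitals mark GGGCGG or its reverse complement CCGCCC, the GC box read by Sp and Klf factors.

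Zfp692 (chr11:58306819-58307068, plus strand): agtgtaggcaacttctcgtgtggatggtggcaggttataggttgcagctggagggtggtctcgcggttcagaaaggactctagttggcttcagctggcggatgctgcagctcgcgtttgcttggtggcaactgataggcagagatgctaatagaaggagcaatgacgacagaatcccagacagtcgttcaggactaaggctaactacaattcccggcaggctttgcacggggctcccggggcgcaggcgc

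Zfp664 (chr5:124862455-124862704, plus strand): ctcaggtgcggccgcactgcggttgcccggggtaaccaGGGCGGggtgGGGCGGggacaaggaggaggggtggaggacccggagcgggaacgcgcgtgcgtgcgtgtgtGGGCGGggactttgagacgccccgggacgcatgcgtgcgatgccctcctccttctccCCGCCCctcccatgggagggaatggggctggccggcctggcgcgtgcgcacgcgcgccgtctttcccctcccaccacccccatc

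Sp100 (chr1:85649738-85649987, plus strand): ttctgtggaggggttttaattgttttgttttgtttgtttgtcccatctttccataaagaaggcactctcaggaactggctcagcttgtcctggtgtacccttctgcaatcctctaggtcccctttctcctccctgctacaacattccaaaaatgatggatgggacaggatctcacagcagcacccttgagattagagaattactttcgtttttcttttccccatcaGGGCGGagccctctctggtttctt

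Zfp692 held no GC box, Zfp664 held 4 and Sp100 held 1. The last 14 bases shown for Zfp664 lie inside its GENCODE transcript. RefSeq windows were found for 71 of the 91 genes, 97 windows in all. On either strand, GGGCGG occurred in 42.3% of these windows, in 55.7% of windows of the other table genes and in 32.7% of all RefSeq windows. CCAAT, the box bound by NF-Y, occurred in 37.1%, 33.7% and 33.8%. TATAAA, a core of the TATA box, occurred in 9.28%, 6.94% and 12.4%. Sites of the motifs were counted separately, and a match describes letters and not binding.

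The first comparison, DOX with Saline, asks how zinc finger-named genes stood after doxorubicin. Most had higher values in DOX, and none passed the test. Of the 74 tested, 63 were higher, where 39.9% of all genes were, and 11 lower, where 60.1% were, with a median log2 fold change on the log2(FPKM + 1) scale of 0.31, while the median over all 3317 genes was -0.34. Over all 91 genes without the filter, 77 were higher. None of the 74 passed an adjusted p of 0.05 (limma, Benjamini-Hochberg over all genes tested). Only 6 of 3317 genes passed, a share of 0.181%, with 0.0301% higher and 0.151% lower. At an unadjusted p under 0.05, 14 of the 74 were higher and 2 lower, where 47.4% of all genes passed, 7.27% higher and 40.1% lower. The groups did not overlap for 31 of the 74, where 35.3% of all genes did not. The values of all DOX libraries lay above all Saline libraries for 29 of the 74, where 12.3% of all genes did so, and below for 2, where 23% of all genes did so. The 2 were Klf11 and Zfp36l1. Scaling moved these results. Without the 20 highest genes, 55 of 76 tested were called, where 33.8% of all genes were, and the medians were 0.75 for these genes and 0.09 for all genes, and in DOX + K35 vs DOX the medians were then -0.85 and -0.13. Relative to all genes, the zinc finger-named genes stayed higher in DOX vs Saline, and lower in DOX + K35 against DOX, under each scaling tried.

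**Figure D1:**
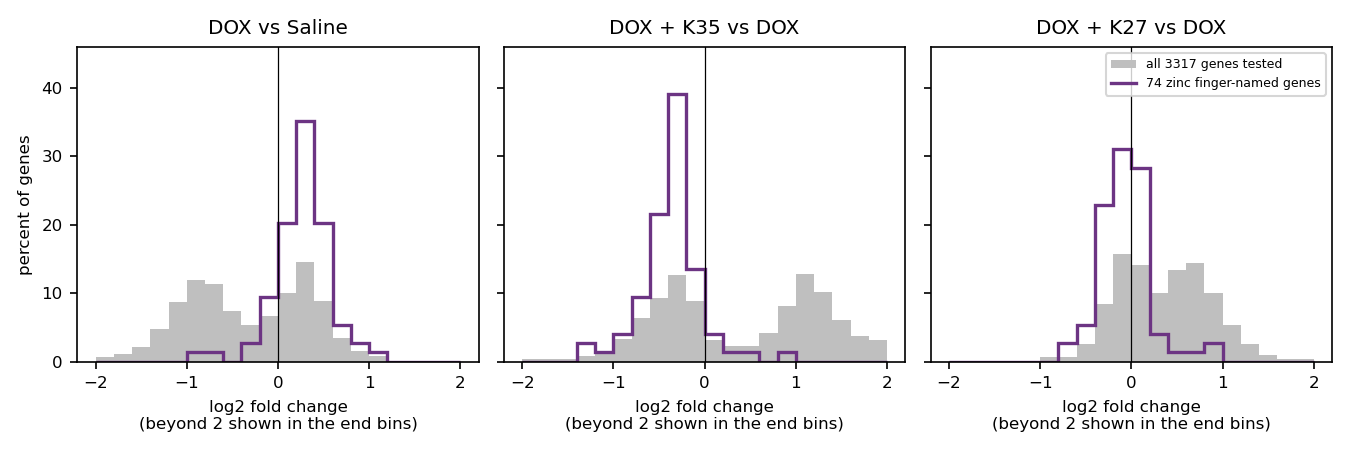
Log2 fold changes of 74 zinc finger-named genes (line) and all 3317 genes tested (grey), as percent of each set per bin of 0.2, in 3 comparisons. The zinc finger-named genes form 1 peak, above 0 in DOX vs Saline and below 0 in DOX + K35 vs DOX, with medians of 0.31 and -0.33, while all genes form 2 peaks in these comparisons.

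The 3 genes with the smallest p-values in this comparison, Zfp692, Zfp276 and Klf11, did not pass the threshold. Zfp276 (chr8:123254195-123269745, plus strand) overlaps Fanca, a Fanconi anaemia DNA repair gene on the opposite strand, over 920 exonic bases, 16.6% of its exonic length. Its values were 7.98, 9.44 and 16.9 FPKM in Saline and 26.9, 27.95 and 21.5 FPKM in DOX. All DOX libraries lay above all Saline libraries, and Saline replicate 3 was the nearest to them. In limma, Zfp276 differed by 1.15 on the log2 scale (SE 0.37), with a 95% interval of 0.36 to 1.94 and an adjusted p of 0.0612.

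Zfp692, also called AREBP, is linked to repression of gluconeogenic genes. It was at 4.14, 3.66 and 4.28 FPKM in Saline and 7.04, 10.4 and 9.46 FPKM in DOX. The Saline libraries lay close together and the DOX libraries all stood above them. On the log2 scale the difference for Zfp692 was 0.97 (SE 0.27, 95% interval 0.41 to 1.54, limma adjusted p = 0.0612).

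Klf11 (chr12:24651274-24662789, plus strand), a TGF-beta-inducible Krüppel-like factor and the only Klf gene tested, went the other way. It was at 4.62, 2.18 and 1.40 FPKM in Saline and 1.21, 0.755 and 0.996 FPKM in DOX, and all DOX libraries lay below all Saline libraries, although the Saline libraries spread widely. Klf11 had a log2 fold change of -0.82, with an SE of 0.29, a 95% interval of -1.44 to -0.21 and a limma adjusted p of 0.0612. Klf7 (chr1:64029447-64122282, minus strand), another Krüppel-like factor, was under the testing limit, with group means of 0.628 FPKM in Saline, 0.619 FPKM in DOX, 0.457 FPKM in DOX + K35 and 0.718 FPKM in DOX + K27, and Gm26649 on the opposite strand covers 39.3% of its exonic length. No gene from Sp1 to Sp9 was among the rows used.

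In DOX + K35 against DOX, which asks how the doxorubicin-treated liver differed when K35 was added, the zinc finger-named genes were mostly lower. Of the 74, 68 were lower and 6 higher, where 44% and 56% of all genes were, with a median log2 fold change of -0.33 where all genes had 0.46. Over all 91 genes, 83 were lower. Adjusted p-values passed 0.05 for 17 of the 74 (limma), 16 lower and 1 higher. Of all genes 56.8% passed, 10.7% lower and 46% higher. The share called lower among the 74, 16 genes, thus stands beside 10.7% and the share called higher, 1 gene, beside 46%. The count of calls moved with the scaling, to 59 of 75 tested after median-ratio scaling, where 78.1% of all genes were called, and to 49 of 74 after quantile normalization, where 69.9% were. It was 69 of 76 without the 20 highest genes, where 70.97% of all genes were called, and 6 of 73 when only these groups were fitted, where 49.8% were. At an unadjusted p under 0.05 there were 22 lower and 1 higher, where 61.4% of all genes passed, 14.1% lower and 47.3% higher. Libraries of both groups were fully separated for 25 of the 74 and 59.7% of all genes. The DOX + K35 libraries lay below all DOX libraries for 22 of the 74 and above for 3, against 15.4% and 44.3% of all genes. The 6 genes with a positive value were Zfp292, Zfp148, Zfp146, Zfp36l1, Klf11 and Zfp664. This comparison shares the DOX libraries with the first, so opposite signs in both are not separate observations.

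**Figure D2:**
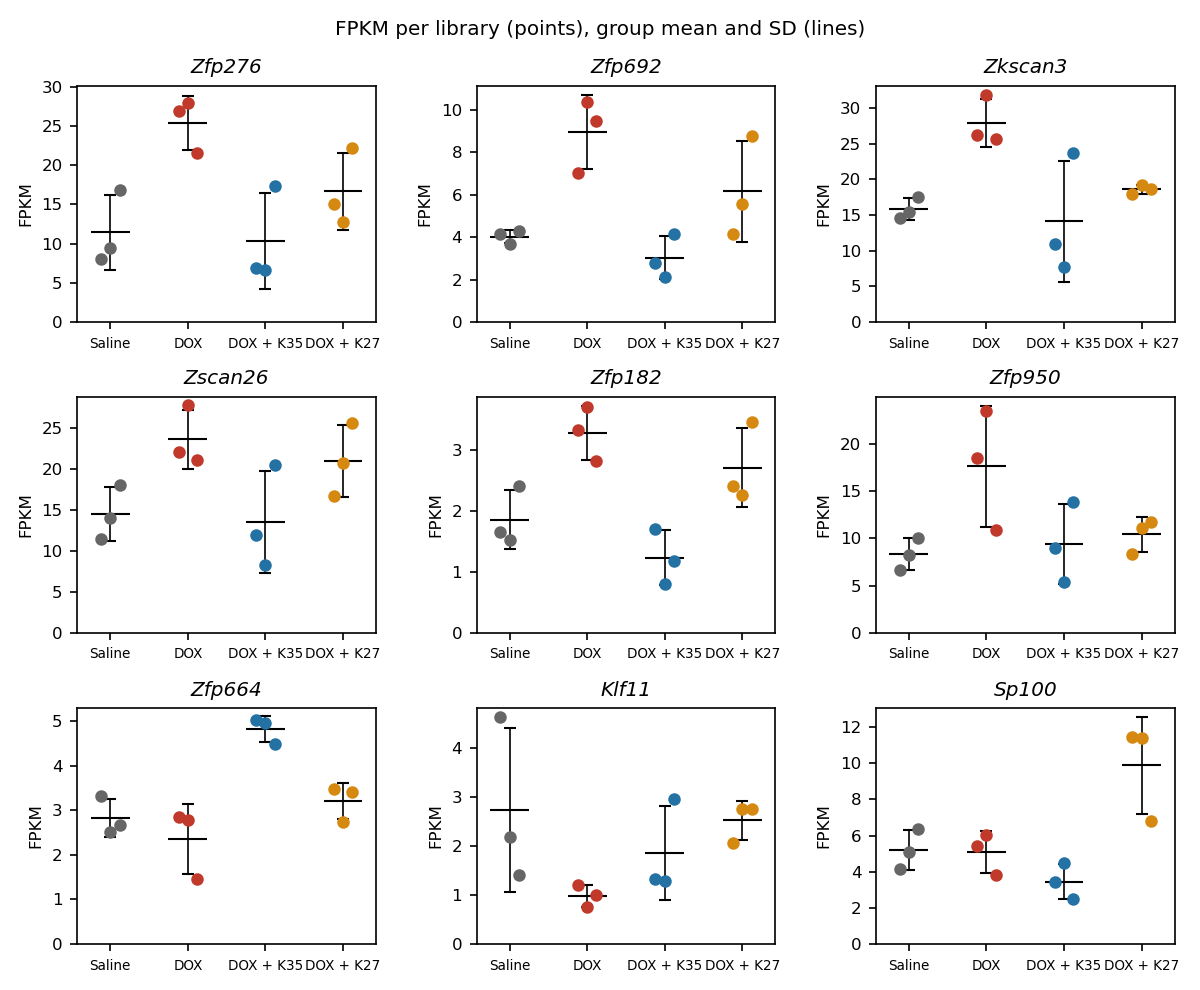
FPKM of 9 named genes in each of the 12 libraries (points), with the group mean and SD (lines, n = 3), on axes that start at 0. Zfp276 lies between 21.5 and 27.95 FPKM in DOX, above all Saline and DOX + K35 libraries, while Sp100 reaches 11.4 FPKM in DOX + K27.

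Zfp276 had the largest fall, from 26.9, 27.95 and 21.5 FPKM in DOX to 6.87, 6.67 and 17.4 FPKM in DOX + K35. The groups did not overlap, although library C4 stood well above the other DOX + K35 libraries. The log2 fold change of Zfp276 was -1.34 (SE 0.37, 95% interval -2.13 to -0.56), which passed at an adjusted p of 0.00842 (limma). The part of its overlap with Fanca in these values was not tested.

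Zfp692 fell to 2.79, 2.14 and 4.13 FPKM in DOX + K35, below every DOX library. In limma, Zfp692 differed by -1.32 on the log2 scale (SE 0.27), with a 95% interval of -1.89 to -0.75 and an adjusted p of 0.00497. Its exons overlap those of no other gene. Its neighbour Zfp672 was at 6.54, 5.12 and 3.59 FPKM in DOX and 4.75, 3.92 and 4.10 FPKM in DOX + K35, where the groups overlapped.

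Zkscan3, a SCAN and KRAB zinc finger protein known as a repressor of autophagy and lysosome genes, was the third highest of the 91 by mean level. It was at 14.6, 15.4 and 17.5 FPKM in Saline, 26.2, 31.8 and 25.7 FPKM in DOX and 10.9, 7.72 and 23.7 FPKM in DOX + K35. Library C4 lay just under the lowest DOX library and far above the other DOX + K35 libraries. On the log2 scale the difference for Zkscan3 was -1.07 (SE 0.33, 95% interval -1.78 to -0.37, limma adjusted p = 0.0133). Without DOX + K35 replicate 1 or replicate 2 it no longer passed, with values of -0.97 and -0.75.

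Zscan26, a SCAN zinc finger factor in the same cluster on chromosome 13, had a like order of libraries, at 22.04, 27.7 and 21.01 FPKM in DOX and 11.9, 8.28 and 20.4 FPKM in DOX + K35. The groups did not overlap, and C4 was again close to DOX. Zscan26 had a log2 fold change of -0.83, with an SE of 0.32, a 95% interval of -1.52 to -0.15 and a limma adjusted p of 0.0383. The call was lost on leaving out Saline replicate 2, DOX replicate 1, B3, DOX + K35 replicate 1, DOX + K35 replicate 2 or DOX + K27 replicate 2, with values from -0.88 to -0.55. The transcript 4930470G03Rik, on the opposite strand, covers 23.6% of its exonic length.

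Zfp182, on the X chromosome (chrX:21028939-21062316, minus strand), fell with library C4 among the low libraries. It was at 3.32, 3.70 and 2.82 FPKM in DOX and 1.71, 0.808 and 1.18 FPKM in DOX + K35. All DOX + K35 libraries were low, and C4 lay between the other 2. The log2 fold change of Zfp182 was -0.95 (SE 0.21, 95% interval -1.40 to -0.51), which passed at an adjusted p of 0.00550 (limma).

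Zfp950 (chr19:61053840-61140840, minus strand) was at 18.5, 23.5 and 10.8 FPKM in DOX and 9.004, 5.41 and 13.9 FPKM in DOX + K35. Library C4 lay above library B4, so the groups overlapped. In limma, Zfp950 differed by -0.86 on the log2 scale (SE 0.34), with a 95% interval of -1.58 to -0.14 and an adjusted p of 0.0420. It passed in 5 of the 12 leave-one-out fits, and not without Saline replicate 2, DOX replicate 1, B3, DOX + K35 replicate 1 or 2, or DOX + K27 replicate 1 or 2, with values from -0.87 to -0.55. Zfp579 fell with a log2 fold change of -0.77 (SE 0.25, limma adjusted p = 0.0154) and Zfp280d with -0.73 (SE 0.23, limma adjusted p = 0.0140). Zfp280d was uniform in DOX, at 5.73, 5.74 and 5.70 FPKM, and lay at 2.79, 2.16 and 4.56 FPKM in DOX + K35. Both calls were lost without DOX + K35 replicate 1 (-0.67 and -0.68) or replicate 2 (-0.67 and -0.55), and that of Zfp579 also without B3 (-0.69). The other 8 genes called lower were Zfp707, Zfp467, Zfp932, Zfp983, Zfp101, Zfp446, Zfp54 and Zfp945, with log2 fold changes between -0.72 and -0.42.

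Zfp664 (chr5:124862691-124902693, plus strand), a factor with 9 C2H2 patterns, was the 1 gene called higher. It was at 3.32, 2.51 and 2.66 FPKM in Saline, 2.85, 2.78 and 1.46 FPKM in DOX, 5.02, 4.96 and 4.49 FPKM in DOX + K35 and 3.47, 2.74 and 3.42 FPKM in DOX + K27. All DOX + K35 libraries, C4 included, lay above every other library. On the log2 scale the difference for Zfp664 was 0.82 (SE 0.21, 95% interval 0.38 to 1.27, limma adjusted p = 0.00670). It passed in each of the 12 leave-one-out fits. With the 20 highest genes left out the value was 0.29 and did not pass.

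Library C4 differed from the other DOX + K35 libraries over the genes as a set. The median deviation of the 74 from their own means was -0.21 in replicate 1, -0.39 in replicate 2 and 0.10 in C4. The summed FPKM of the 91 genes was 278, 241 and 380 in these libraries, against 317 to 361 in Saline, 364 to 467 in DOX and 368 to 436 in DOX + K27. Without C4, 30 of the 72 then tested were called between DOX + K35 and DOX, beside 63.4% of all genes. Without DOX + K35 replicate 2, 4 of 74 were called, beside 45.4% of all genes. With B4 and C4 both left out, 38 of the 73 then tested were called, 37 lower and 1 higher, beside 62.99% of all genes, and the median was -0.52.

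**Figure D3:**
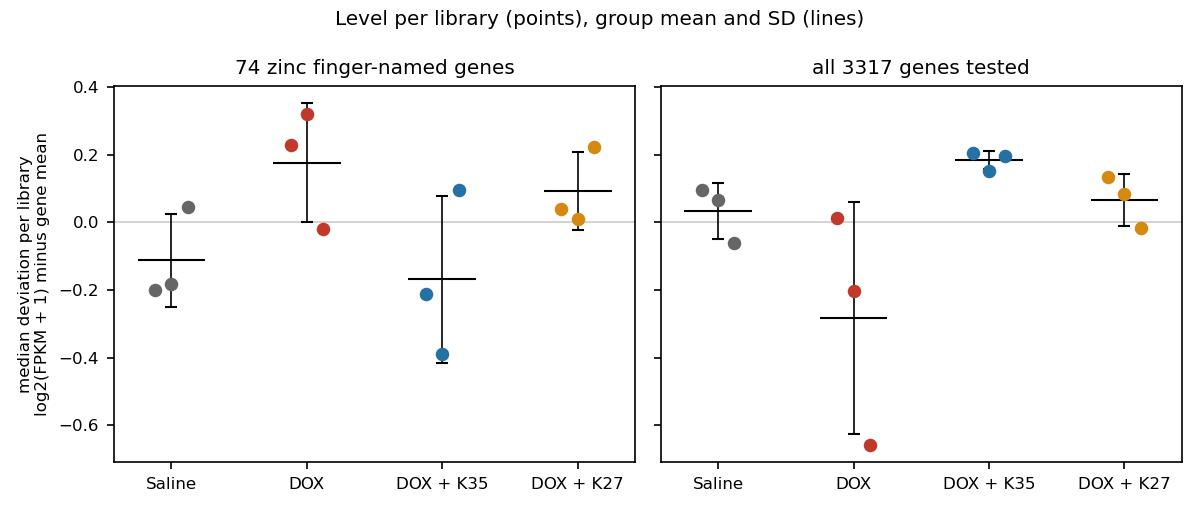
Median deviation of log2(FPKM + 1) from the gene mean in each library (points), with group mean and SD (lines, n = 3), for 74 zinc finger-named genes and for all 3317 genes tested. The zinc finger-named genes run from -0.39 in DOX + K35 replicate 2 to 0.32 in DOX library B3, and all genes are lowest in DOX library B4, at -0.66.

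In 3 of the 4 groups the library with the highest mitochondrially encoded share also had the highest level of these genes. Saline replicate 3, library C4 and DOX + K27 replicate 3 had the highest share of their groups, at 61.9%, 48.7% and 68.0%, and the highest median deviation, at 0.05, 0.10 and 0.22. In DOX, B4, at 83.3%, had the lowest, -0.02. The order of the other libraries did not follow the share in DOX + K35, where replicate 2 had a higher share than replicate 1 (39.5% and 37.9%) and a lower deviation (-0.39 and -0.21), nor in DOX + K27, where replicate 2 had 53.7% and 0.01 and replicate 1 had 50.01% and 0.04. Libraries of close share from different groups were also set side by side, as single libraries with no test. DOX replicate 1 (62.2%) against Saline replicate 3 (61.9%) had 56 of the 74 higher, with a median difference of 0.20 on the log2 scale, while 59.5% of all genes were higher. Library C4 (48.7%) against Saline replicate 2 (48.7%) had 54 of the 74 higher, with a median difference of 0.29, while 59.3% of all genes were higher. DOX + K27 replicate 1 (50.01%) against Saline replicate 2 had 64 of the 74 higher, with 0.23, while 57.2% of all genes were higher. DOX + K27 replicate 1 against library C4 had 37 higher and 37 lower, with a median difference of -0.01, while 43.3% of all genes were higher. This pair of libraries did not show the lower level with K35 that the groups showed, and C4 was the DOX + K35 library with the highest level of these genes. Library C4 against DOX replicate 1, a pair of unlike share, had 24 higher and 50 lower, with -0.14, while 57.9% of all genes were higher. With the mitochondrially encoded genes left out and each library rescaled, the medians were 0.52 for DOX against Saline and -0.54 for DOX + K35 against DOX. The medians of all genes moved too, to -0.15 and 0.23. Zinc finger-named genes then differed from all genes by 0.68 and -0.77 in median. With the mitochondrially encoded genes kept, these differences were 0.65 and -0.79. The share also differed between the groups, and its part in the values of the zinc finger-named genes was not tested.

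Summed markers of other cells also stood at different levels in some groups, as ranges over libraries with no test. The summed FPKM of 4 globin genes was 330 to 506 in Saline, 821 to 1135 in DOX, 62.2 to 596 in DOX + K35 and 452 to 1072 in DOX + K27. Of 11 Kupffer cell markers 6 were in the table, summing to 73.4 to 202 FPKM in Saline, 18.5 to 53.0 in DOX, 53.1 to 84.3 in DOX + K35 and 53.9 to 97.0 in DOX + K27. Stellate cell markers (4 of 8) summed to 6.68 to 9.24 in Saline, 10.4 to 17.9 in DOX, 6.29 to 13.5 in DOX + K35 and 11.4 to 18.6 in DOX + K27. Endothelial markers (3 of 8) ranged from 4.92 to 15.0 over all libraries and Cd79b, the only lymphocyte marker of 10, from 0.252 to 3.95. No marker found was at 0 in a library, and none of the neutrophil or cholangiocyte lists was among the rows used. Their part in the values of the zinc finger-named genes was not tested.

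**Figure D4:**
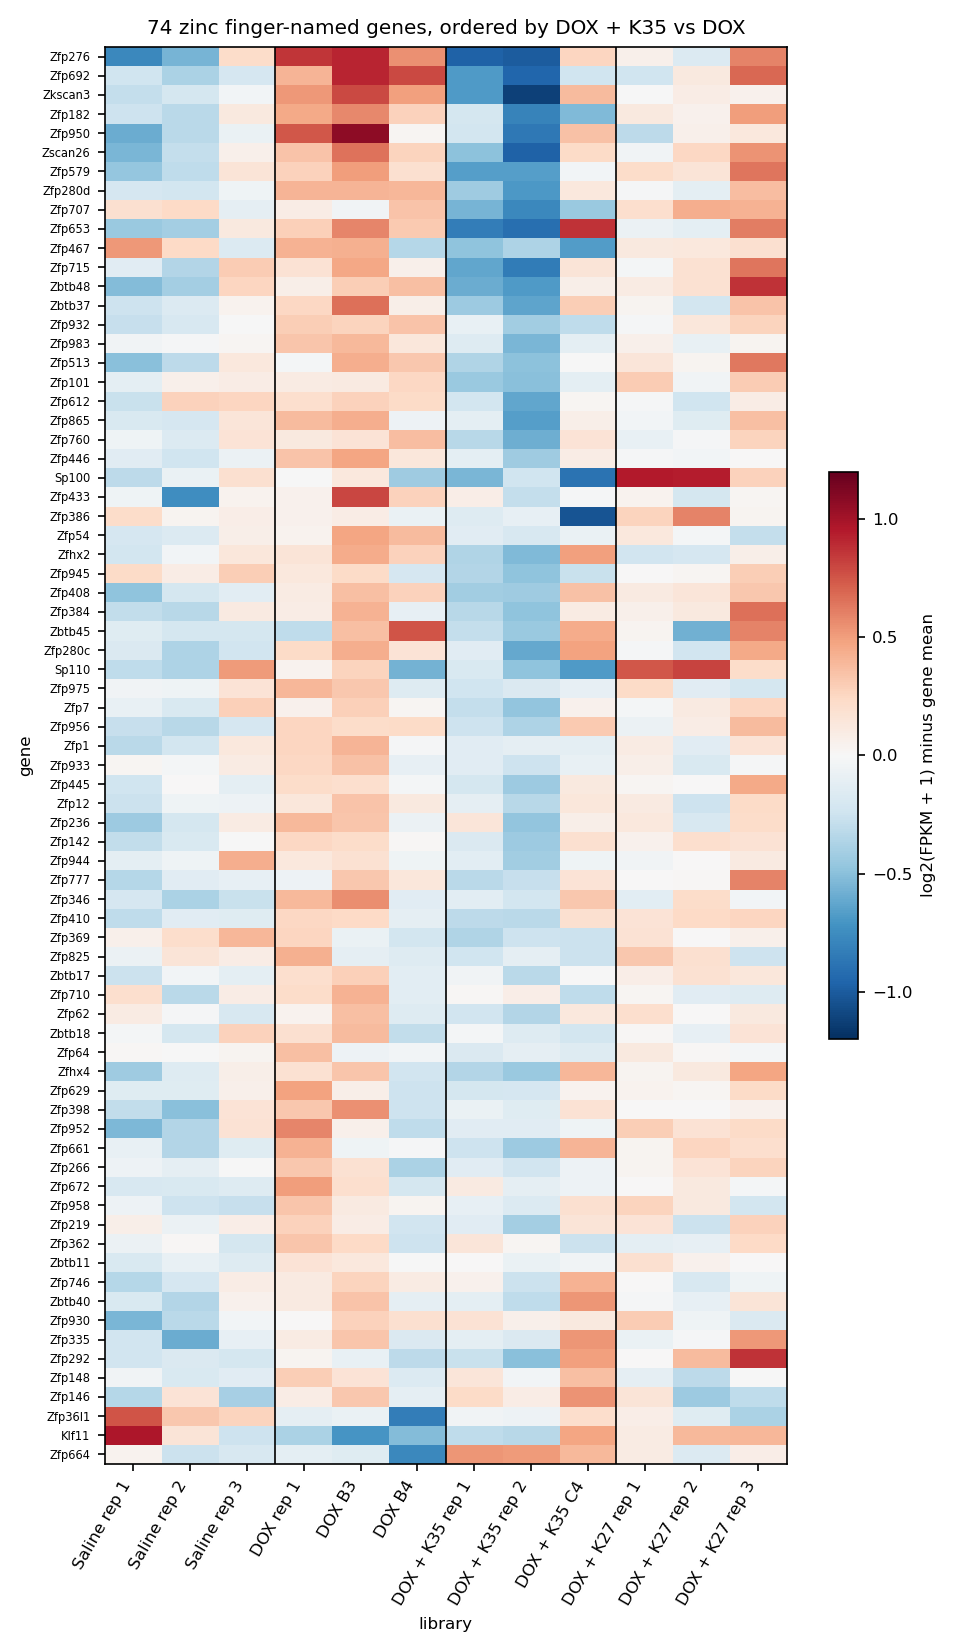
Log2(FPKM + 1) minus the gene mean (colour, from -1.2 to 1.2) for 74 zinc finger-named genes (rows, ordered by DOX + K35 vs DOX) in the 12 libraries (columns). Most rows are high in DOX and low in DOX + K35 replicates 1 and 2, with library C4 nearer to DOX, while Zfp36l1, Klf11 and Zfp664 at the foot differ.

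No zinc finger-named gene passed the test between DOX + K27 and DOX. In DOX + K27 against DOX, 28 of the 74 were higher and 46 lower, with a median log2 fold change of -0.08, where 71.6% of all genes were higher and 28.4% lower, and their median was 0.36. Over all 91 genes, 35 were higher. None of the 74 passed (limma), where 0.0603% of all genes did, and 3, all higher, had an unadjusted p under 0.05, where 29.3% of all genes did, 28% higher and 1.3% lower. Separation of all libraries was seen for 10 of the 74 and 18.6% of all genes. The DOX + K27 libraries lay above all DOX libraries for 2 of the 74, against 15.9% of all genes, and below for 8, against 2.68%. The median of standard errors over the 74 was 0.22, so single-gene differences near the median of -0.08 were not detectable with 3 libraries a group.

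The 3 genes with the smallest p in this comparison, Sp100, Klf11 and Sp110, were all higher in DOX + K27 and did not pass, and of these only Klf11 has the C2H2 pattern. Sp100 had a log2 fold change of 0.83, with an SE of 0.26, a 95% interval of 0.26 to 1.39 and a limma adjusted p of 0.155. The log2 fold change of Klf11 was 0.83 (SE 0.29, 95% interval 0.22 to 1.44), which did not pass at an adjusted p of 0.155 (limma). In limma, Sp110 differed by 0.68 on the log2 scale (SE 0.28), with a 95% interval of 0.08 to 1.27 and an adjusted p of 0.156. Klf11 was at 2.06, 2.75 and 2.76 FPKM in DOX + K27, above every DOX library, and at 1.32, 1.28 and 2.96 FPKM in DOX + K35.

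K35 and K27 were given at the same dose and times, so the libraries can be compared directly, as 1 pair of compounds. The zinc finger-named genes were lower with K35. Of the 74, 66 were lower in DOX + K35 than in DOX + K27 and 8 higher, where 47.1% and 52.9% of all genes were, with a median of -0.27, where all genes had 0.09. Over all 91 genes, 81 were lower. Sp100, which lacks the C2H2 pattern, alone passed (limma), lower with K35, and none of the 71 tested genes with the pattern did, where 2.11% of all genes passed, 1.69% lower and 0.422% higher. At an unadjusted p under 0.05, 14 were lower and 1 higher, where 28.4% of all genes passed, 13.6% lower and 14.7% higher. The groups did not overlap for 20 that were lower and 1 that was higher, Zfp664, against 18.9% and 30.6% of all genes, 49.5% together.

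Sp100 (chr1:85649988-85709998, plus strand) was at 4.17, 5.11 and 6.37 FPKM in Saline, 5.42, 6.02 and 3.79 FPKM in DOX, 3.41, 4.46 and 2.49 FPKM in DOX + K35 and 11.4, 11.4 and 6.80 FPKM in DOX + K27. Every DOX + K27 library stood above every library of the other groups. Between the compounds Sp100 passed. On the log2 scale the difference for Sp100 was -1.28 (SE 0.26, 95% interval -1.84 to -0.72, limma adjusted p = 0.0271). In DOX + K35 vs DOX the value was -0.45 (limma adjusted p = 0.154). The call between the compounds was lost without DOX + K35 replicate 1, DOX + K27 replicate 1 or DOX + K27 replicate 2, with values of -1.28, -1.17 and -1.17, and in a fit of only these 2 groups (-1.28, adjusted p = 0.0574).

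Sp110 (chr1:85576899-85598817, minus strand), 51171 bases from Sp100, was at 1.41, 0.952 and 0.707 FPKM in DOX + K35 and 3.57, 3.80 and 2.18 FPKM in DOX + K27, which did not overlap. The difference between the compounds did not pass. Sp110 had a log2 fold change of -1.04, with an SE of 0.28, a 95% interval of -1.63 to -0.45 and a limma adjusted p of 0.0657. In Saline it was at 1.21, 1.11 and 2.91 FPKM and in DOX at 1.81, 2.30 and 0.848 FPKM, so DOX + K27 replicate 3 lay within their range. Of its 50-base words 43.9% occur in other genes, mainly Gm15753, so its level is uncertain.

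For the genes called lower with K35 against DOX, the difference between the compounds was not called. Zfp692 was at 4.14, 5.57 and 8.78 FPKM in DOX + K27. The log2 fold change of Zfp692 was -0.81 (SE 0.27, 95% interval -1.38 to -0.24), which did not pass at an adjusted p of 0.101 (limma). Zfp276 was at 15.1, 12.7 and 22.2 FPKM in DOX + K27, and -1.52 to 0.06 was the 95% interval of its log2 fold change between the compounds. The interval was -1.22 to 0.19 for Zkscan3, -1.18 to -0.30 for Zfp182 and -0.92 to 0.52 for Zfp950. Those of Zfp276, Zkscan3 and Zfp950 span 0 and also hold differences of 0.9 or more in size, so the compounds are not shown to act alike on them. Zfp182 had an interval below 0 but an adjusted p of 0.0698 (limma).

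Zfp707 (chr15:75969123-75975868, plus strand), the C2H2 gene with the highest mean level, differed in its pattern from most others. It was at 22.6, 23.3 and 18.2 FPKM in Saline, 20.97, 19.1 and 25.2 FPKM in DOX, 13.03, 11.1 and 14.1 FPKM in DOX + K35 and 22.7, 26.9 and 26.6 FPKM in DOX + K27. Saline and DOX overlapped, and all DOX + K35 libraries, C4 included, lay below every other library. It fell in DOX + K35 vs DOX by 0.72 on the log2 scale (limma adjusted p = 0.0219). Between DOX + K35 and DOX + K27 it did not pass. In limma, Zfp707 differed by -0.94 on the log2 scale (SE 0.25), with a 95% interval of -1.47 to -0.41 and an adjusted p of 0.0651.

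Against Saline, neither compound group had a called gene among the 74 (limma). In DOX + K35 vs Saline the median was -0.06, with 30 higher and 44 lower, where 58.8% and 41.2% of all genes were. Of all genes 0.181% were called, 0.0904% higher and 0.0904% lower. At an unadjusted p under 0.05, 2 of the 74 were higher and 5 lower, where 16.6% of all genes passed, 10.4% higher and 6.18% lower. All libraries were separated for 5 that were higher and 12 that were lower, against 22.2% and 10.1% of all genes, 32.3% together. In DOX + K27 vs Saline the median was 0.21, with 63 higher and 11 lower, where 50.5% and 49.5% of all genes were. Of all genes 0.121% were called, and 4 of the 74, all higher, had an unadjusted p under 0.05, where 5.94% did, 4.79% higher and 1.15% lower. All libraries were separated for 17 that were higher and 1 that was lower, against 11% and 2.95% of all genes, 13.9% together. The group with the highest mean was DOX for 50 of the 91 genes, DOX + K27 for 29, Saline for 7 and DOX + K35 for 5. The lowest mean was in DOX + K35 for 51, in Saline for 34 and in DOX and DOX + K27 for 3 each. Over all 3799 genes the highest mean was in DOX for 27.3%, in DOX + K27 for 19.4%, in Saline for 10.8% and in DOX + K35 for 42.4%. The lowest was in DOX + K35 for 32.5%, in Saline for 18.2%, in DOX for 45.8% and in DOX + K27 for 3.50%.

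**Figure D5:**
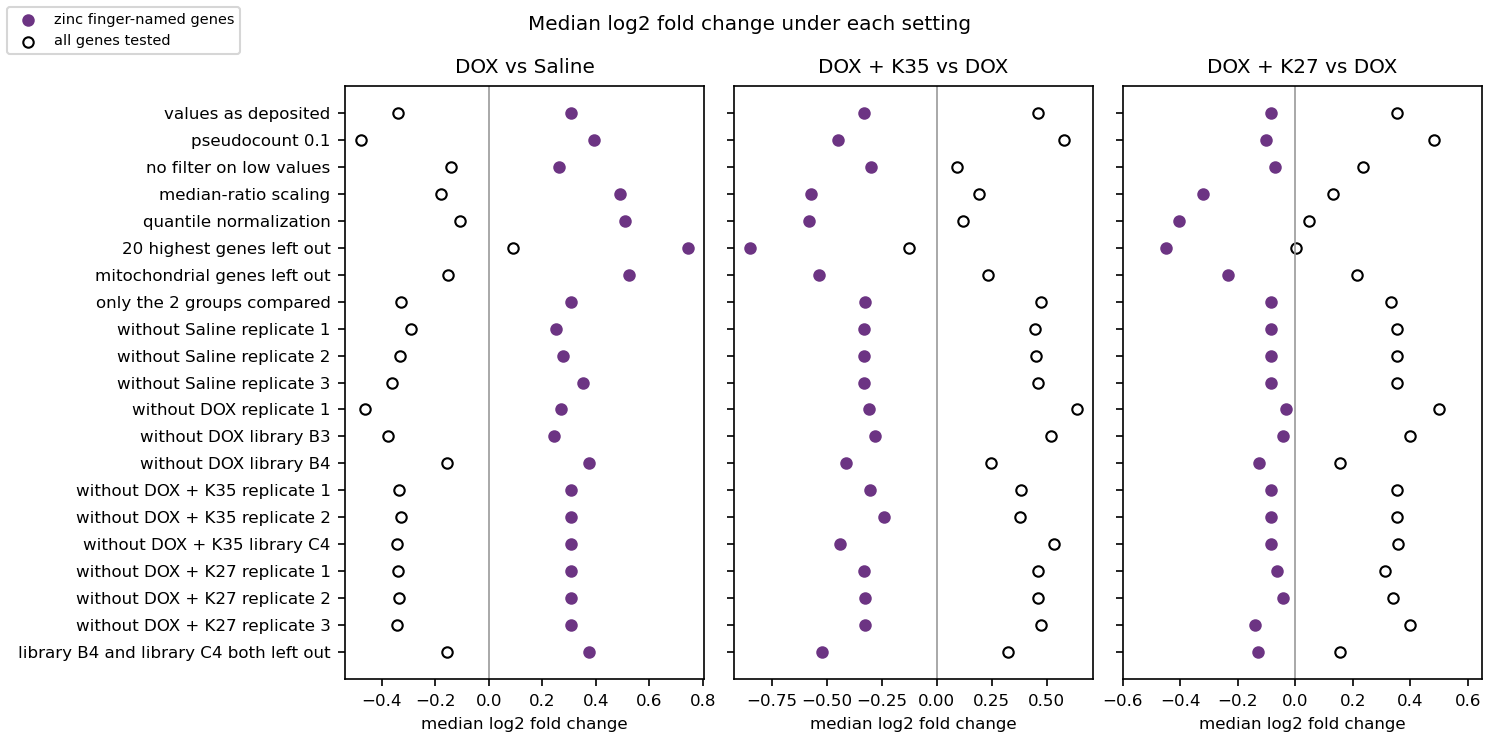
Median log2 fold change of the zinc finger-named genes (filled) and of all genes tested (open) under each setting (rows) in 3 comparisons. The filled points stay above 0 in DOX vs Saline, from 0.24 to 0.75, and below 0 in DOX + K35 vs DOX, from -0.85 to -0.24, while the open points of these comparisons change side when the 20 highest genes are left out.

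By family, the Zbtb genes followed the set. All 7 tested, of 8, were higher in DOX than in Saline (median 0.27) and lower in DOX + K35 than in DOX (median -0.25). None was called in either. Among all genes, 39.9% were higher and 0.181% called in the first, and 44% were lower and 56.8% called in the second. Their mean levels ran from 0.912 FPKM for Zbtb46, a dendritic cell factor that was not tested, to 9.002 FPKM for Zbtb48, which binds telomere repeats. Zbtb48 was at 5.67, 6.19 and 10.4 FPKM in Saline, 9.04, 10.7 and 11.3 FPKM in DOX, 5.34, 4.94 and 9.01 FPKM in DOX + K35 and 9.24, 9.85 and 16.4 FPKM in DOX + K27. Its DOX + K35 libraries lay below all DOX and DOX + K27 libraries, with a log2 fold change against DOX of -0.65 (limma adjusted p = 0.0770). Zbtb17, the Myc partner Miz-1, had a log2 fold change of 0.26 against Saline in DOX and -0.25 in DOX + K35 vs DOX, and Zbtb18, a repressor, 0.08 and -0.23. Zbtb11, Zbtb37, Zbtb40 and Zbtb45 ranged from 0.23 to 0.46 in the first and from -0.58 to -0.08 in the second. Exons of Zbtb37 overlap Serpinc1, which encodes the abundant liver protein antithrombin on the opposite strand, over 2942 bases. The homeodomain zinc finger genes Zfhx2 and Zfhx4, at 1.93 and 1.67 FPKM, had log2 fold changes of 0.33 and 0.26 between DOX and Saline and of -0.42 and -0.23 in DOX + K35 vs DOX, and none was called.

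Zfp36l1 (chr12:80107754-80113013, minus strand), the RNA-binding protein and the gene with the highest mean level, was at 44.8, 33.1 and 31.8 FPKM in Saline, 24.3, 24.7 and 14.4 FPKM in DOX, 25.5, 25.2 and 30.5 FPKM in DOX + K35 and 27.7, 23.5 and 19.98 FPKM in DOX + K27. All DOX libraries lay below all Saline libraries. On the log2 scale the difference for Zfp36l1 was -0.79 (SE 0.29, 95% interval -1.41 to -0.16, limma adjusted p = 0.0639). In DOX + K35 vs DOX the value was 0.38 and turned to -0.36 after quantile normalization and to -0.32 without the 20 highest genes, so its direction there depended on the scaling. Gm26669, on the opposite strand, covers 55.9% of its exonic length.

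Genes without overlapping exons and with at most 10% shared 50-base words had the same directions. Of these 41 tested, 35 were higher in DOX than in Saline (median 0.27) and 36 were lower in DOX + K35 than in DOX (median -0.31). Medians by number of fingers were not tested against each other. The 37 genes with 10 or more C2H2 patterns had medians of 0.29 and -0.33, and the 34 with 1 to 9 had 0.34 and -0.31. The 3 genes without the pattern had medians of -0.04 and -0.36.

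The partners of these factors were read from lists. Of 17 KRAB corepressor genes 4 were in the table. Setdb1 was at 5.55, 6.46 and 4.20 FPKM in DOX and 4.45, 4.10 and 4.42 FPKM in DOX + K35 and was not called, and Chd3 and Morc3 were not called either. Mphosph8, a HUSH complex protein that reads methylated histone H3, rose in DOX + K35 against DOX (log2 fold change 0.71, limma adjusted p = 0.0155). Of 15 BTB corepressor genes 5 were in the table, and Cul3, a ubiquitin ligase scaffold that binds BTB proteins, rose in DOX + K35 against DOX (1.21, limma adjusted p = 0.00749). Cul3 was the only gene of its list called in this comparison, as Mphosph8 was of the KRAB list. Among all genes 56.8% were called there, 46% higher and 10.7% lower. Of the KRAB list 1 was higher and 3 lower, with a median of -0.30, where all genes had 0.46. Of the BTB list 3 were higher and 2 lower, with a median of 0.39. None of either list was called in DOX vs Saline, in DOX + K27 vs DOX or between the compounds. Of all genes 0.181%, 0.0603% and 2.11% were called in these comparisons.

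Other C2H2 factors, outside the naming rule, were split in direction, with medians that lay to the same side of all genes as those of the zinc finger-named genes. Of 75 listed, 11 were in the table and all were tested. In DOX vs Saline 7 were higher and 4 lower, with a median of 0.06, where all genes had -0.34. None was called, where 0.181% of all genes were. In DOX + K35 vs DOX 4 were higher and 7 lower, with a median of -0.28, where all genes had 0.46. There 2 were called higher, the liver repressors Zhx1 (1.28) and Zhx2 (0.84), where 46% of all genes were. Called lower were 3, Hivep2 (-0.70), E4f1 (-0.74) and Hivep1 (-0.47), where 10.7% of all genes were. Zhx1 was at 2.99, 2.38 and 1.42 FPKM in DOX and 7.11, 7.49 and 5.86 FPKM in DOX + K35, which did not overlap. Of 28 zinc-coordinating factors of other folds 8 were in the table and 7 tested. In DOX vs Saline 1 of the 7 was higher and 6 lower, with a median of -0.47 and none called. In DOX + K35 vs DOX 4 were higher and 3 lower, with a median of 0.31. There 1 was called, where 56.8% of all genes were. Rxra, the partner of many nuclear receptors, rose in DOX + K35 against DOX (1.21, limma adjusted p = 0.0100), at 33.6, 23.3 and 14.2 FPKM in DOX and 63.7, 65.1 and 36.5 FPKM in DOX + K35. Nr1d1, a clock repressor, was lower in DOX + K35 than in DOX + K27 (-1.73, limma adjusted p = 0.0371). Between the compounds 2.11% of all genes were called. In DOX + K27 vs DOX none of either list was called, where 0.0603% of all genes were.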

How the data were processed

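RNA-seq of 12 mouse liver libraries, 3 in each of 4 groups, was read from 1 deposited table. The deposited values are length-scaled and were treated as FPKM, although the file header names no unit. The submitters' processing notes name HISAT2, DESeq2, edgeR and GRCm38 without versions or roles, and the counter, annotation, strand setting and selection of table genes are not given in the sources used here. The table keeps no depth. Groups were taken from the sample labels. Libraries B3, B4 and C4 were assigned to no replicate label, because the codes of their letters differ from those in the labels. They were placed by group letter only. Nothing beyond the labels says that the libraries of a group are separate animals, so p-values measure the spread between these libraries.

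Testing was on log2(FPKM + 1). The 4 groups were fitted together in limma 3.58.1 under R 4.3.3, with a mean-variance trend, for genes averaging 1 FPKM or more across the 12 libraries, and with Benjamini-Hochberg adjustment over all genes within each of 6 comparisons and a threshold of 0.05. Fold changes are on this scale and understate changes of low genes. An exact permutation test of 3 against 3 cannot go below 0.1. The fit was tested on simulated data. Other settings tried were an offset of 0.1, testing without the filter, scaling by median ratios, quantile normalization, dropping the 20 highest or the 13 mitochondrially encoded genes, a fit of the compared groups alone, blocking by replicate number, and omitting every library in turn. Leaving out B4 and C4 together was chosen after seeing the data. The block was run for comparisons whose groups share more than 1 replicate number, on the 9 numbered libraries only. Same-numbered Saline and DOX + K27 libraries had correlated deviations (0.26, 0.18 and 0.47). However, Saline replicate 1 with DOX + K27 replicate 2 (0.38) and Saline replicate 2 with DOX + K27 replicate 1 (0.30) correlated more than the same-numbered replicates 1 and 2 did. The pairing in the block was set by the numbers alone, not by these correlations or by a stated shared batch.

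Members and gene lists were chosen with earlier results of these data known. Named were all Klf, Sp, Zbtb, Zkscan, Zscan, Zfhx and Zfp36-type genes, up to 8 called genes with the largest change in each direction in each of the first 4 comparisons (the 3 with the smallest p where none passed), the 5 with the highest level, and list genes past the threshold. Other genes were named after their values were seen. Positions, overlaps and reading frames came from GENCODE M21, and upstream windows from RefSeq (GRCm38.p6). Exonic words of 50 bases were compared between genes. Scripts used Python 3.11.15 with pandas 2.3.3.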

Additional observations from a re-analysis of the deposited data

Results flagged for a closer look

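Sp100 was marked because the compounds' differences from DOX differed from each other. The value was 0.83 in DOX + K27 vs DOX and -0.45 in DOX + K35 vs DOX on the log2 scale, and the difference between the compounds was -1.28 (limma adjusted p = 0.0271), lower in DOX + K35 in 3 of 3 libraries than in any DOX + K27 library. Both differences share the DOX libraries, and the test compares the compound groups directly.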

How the results depend on the processing

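The medians of the zinc finger-named genes kept their sign in DOX vs Saline, DOX + K35 vs DOX, DOX + K27 vs DOX and DOX + K35 vs DOX + K27 under every setting tried. In DOX vs Saline the count of calls (0 as reported) was 26 after median-ratio scaling, 21 after quantile normalization and 55 without the 20 highest genes (32.05%, 19.6% and 33.8% of all genes), with medians of 0.49, 0.51 and 0.75, and 0.52 without mitochondrially encoded genes. Leaving out 1 library gave 0 to 8 calls (8 without Saline replicate 3, where 35.8% of all genes were called, and 6 without DOX replicate 1, where 44.6% were) and medians of 0.24 to 0.37. In DOX + K35 vs DOX the count (17) was 59, 49 and 69 in the same order of settings, 46 without mitochondrially encoded genes, 6 with only the groups compared and 38 without B4 and C4 (78.1%, 69.9%, 70.97%, 69.8%, 49.8% and 62.99% of all genes), with medians of -0.57, -0.58, -0.85, -0.54 and, without B4 and C4, -0.52. Leaving out 1 library gave 4 (without DOX + K35 replicate 2) to 30 calls (without C4), 6 without DOX + K35 replicate 1 and 9 without B3 (45.4%, 63.4%, 45.8% and 48.6% of all genes), and medians of -0.44 to -0.24. In DOX + K27 vs DOX the medians were -0.32, -0.41 and -0.45, and leaving out 1 library gave 0 to 2 calls (2 without DOX replicate 1, where 33.3% of all genes were called) and medians of -0.14 to -0.03. In DOX + K35 vs DOX + K27 the count (1) was 5, 3 and 8, then 3 without mitochondrially encoded genes, 0 with only the groups compared and 20 without B4 and C4, where 8.70%, 6.75%, 7.80%, 3.56%, 0.816% and 23.3% of all genes were called. Leaving out 1 library gave 0 to 5 calls (5 without C4 and 4 without B4, where 5.38% and 8.54% of all genes were called, and 0 without DOX + K35 replicate 1, DOX + K27 replicate 1 or DOX + K27 replicate 2) and medians of -0.39 to -0.14. Against Saline, leaving out 1 library gave 0 calls, with medians of -0.20 to 0.04 for DOX + K35 and 0.15 to 0.26 for DOX + K27. The medians of all genes moved with the settings as well. With every library kept, they ran from -0.48 to 0.09 in DOX vs Saline and from -0.13 to 0.58 in DOX + K35 vs DOX. The cause of these shifts was not tested.

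With a replicate block, 25 genes were called in DOX + K35 vs DOX + K27 and 2 in DOX + K35 vs Saline, beside 43.6% and 7.11% of all genes, where only 2 numbers are shared and the numbers are not shown to pair the libraries. The block used only the 9 libraries with a replicate number, so B3, B4 and C4 were left out. Leaving out B4 and C4 without a block gave 20 calls in DOX + K35 vs DOX + K27, beside 23.3% of all genes. The part of the block itself in the 25 calls was not tested. The block left DOX + K27 vs Saline at 0 calls. No paired analysis was run for the comparisons with DOX because only 1 DOX library was assigned a number. Among single named genes, 464 values kept their direction and side of the threshold, 28 lost a call, 27 gained one and 25 moved. Depth is unknown, and low genes are limited by the offset of 1 FPKM.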
